A study of Homo sapiens with 15 samples.

Results

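The comparison described here is that of T-DXd against vehicle in NCI-N87 cells, taken as the 6 libraries that the sample labels assign to these 2 treatments, out of 15 libraries in all. Every gene of the NCI-N87 table entered, which lists 18473 genes, and 17394 of them had enough reads to be tested. NCI-N87 is an established human gastric carcinoma line with an amplified ERBB2 gene, labelled wild type, so the groups share their genotype and differ in treatment. T-DXd-treated cells received trastuzumab deruxtecan, an antibody-drug conjugate, at 1 µg/ml for 72 h, and vehicle-treated cells received acetate buffer with sorbitol over the same time, with 3 biological replicates of each. SNU-484 cells, a gastric carcinoma line with low HER2, given T-DXd or vehicle (3 libraries each), are used only for tests of a difference. Trastuzumab-treated NCI-N87 cells (1 µg/ml, 72 h, 3 libraries) are used for such a test too. Their libraries also entered the fit of T-DXd against vehicle, where all 9 NCI-N87 libraries share the filter, scaling and estimate of spread. Each line is a single established culture, and the columns of the SNU-484 controls carry the letters iso where the labels say vehicle. The labels call the replicates biological without saying whether they were separate cultures or days, so p-values measure the spread between these libraries.

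HER2, the product of ERBB2, is a receptor tyrosine kinase that drives growth when its gene is amplified. The antibody part of T-DXd binds HER2, the conjugate is taken up into lysosomes, and proteases there cut the linker and free DXd, a topoisomerase I inhibitor. Topoisomerase I relaxes DNA ahead of replication forks and RNA polymerases. When an inhibitor traps it on DNA, passing forks turn the trapped complexes into strand breaks, and cells answer with checkpoint signaling, repair and, through p53 where it is functional, p21.

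Total counts per library were 59057346 to 61462654 with T-DXd and 51963223 to 59945056 with vehicle. Reads on ribosomal RNA genes took 0.669%, 1.28% and 1.34% of the counts with T-DXd and 0.732%, 0.483% and 0.760% with vehicle. Mitochondrially encoded genes took 9.05%, 9.41% and 9.47% with T-DXd and 9.78%, 9.68% and 9.59% with vehicle, so T-DXd replicate 1 was the lowest of its group in both shares. The cells carried the markers of gastric epithelium. KRT8, a keratin of simple epithelia, averaged 5192 ± 110.3 CPM with T-DXd and 4140.2 ± 37 CPM with vehicle (SD, n = 3 each), and all 9 epithelial markers of the list passed the filter. Of 20 leukocyte markers 9 were tested, and PTPRC and the CD3 genes, which define leukocytes and T cells, are not in the table analysed. The summed level of those 9 was 103 to 106 CPM with T-DXd and 69.9 to 72.8 CPM with vehicle, most of it from LYZ and CD68, and 5 of 9 were higher and 1, LYZ, lower (-0.10 ± 0.04). The call of LYZ was lost without T-DXd replicate 2 or 3 and without vehicle replicate 1 or 3 (adjusted p = 0.0798 to 0.163, edgeR). The part of other cell types in the results was not tested.

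Genes were called at an adjusted p under 0.05 from edgeR's quasi-likelihood test, with p-values adjusted over all 17394 genes by the Benjamini-Hochberg method. Levels are CPM (counts divided by the scaled library total and multiplied to a common depth), and changes are log2 fold changes of T-DXd over vehicle ± SE, also where only the value and its SE are given. CPM are shares of the reads of a library, so fewer cells with a transcript, fewer copies per cell and a change in the total RNA of a cell cannot be told apart here. The test called 58.6% of the genes, 29.1% higher (5069) and 29.5% lower (5125). T-DXd and vehicle libraries did not overlap, with all T-DXd libraries higher, in 31.5% of genes, and with all lower in 31.9%. Most of the calls were small. The median absolute log2 fold change of called genes was 0.36, and 73.5% of them changed by less than 1.5-fold. Calls with at least 1.5-fold change made up 9.3% of genes on the higher side and 6.25% on the lower side, and calls with at least 2-fold change 3.81% (663 genes) and 1.95% (339 genes). The balance turned with size, as nearly equal numbers rose and fell overall while larger changes were more often increases. Of the genes changed at least 4-fold, 70 were higher and 16 lower. Many of the large changes were in weakly expressed genes, and where the mean log2 CPM was 2 or more the 2-fold classes held 178 genes higher and 66 lower. Limiting the test to genes with at least 10 counts in every library left 221 genes in the class at least 2-fold lower. With 29.1% of all genes higher and 29.5% lower, a share of a gene group is read below against these values.

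**Figure D1:**
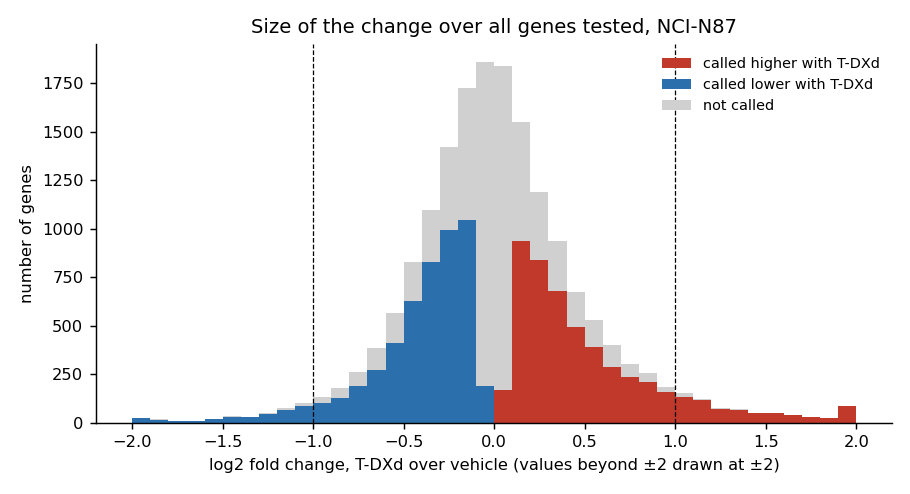
Number of genes (y axis) by log2 fold change of T-DXd over vehicle (x axis, bins of 0.1) in NCI-N87 cells, stacked as called higher, called lower and not called, with dashed lines at 2-fold. Called genes crowd close to 0 on both sides, and the tail beyond 2-fold is heavier on the right, with 663 genes called higher and 339 called lower.

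The largest increase among genes averaging at least 2 on the log2 CPM scale was that of UPK2, which encodes a membrane protein of bladder lining (chromosome 11, 118956298 to 118958559, GRCh38.p14). It measured 16.2, 16.8 and 19.3 CPM in T-DXd-treated cells, against 1.03, 1.42 and 1.34 CPM in vehicle-treated cells. Its log2 fold change was 3.79 ± 0.14 (adjusted p = 8.98e-13, edgeR), and the weakest T-DXd library stood more than 10-fold above the strongest vehicle library. KRT13, a keratin of stratified mucosa (chromosome 17, 41500981 to 41505612), measured 117, 125 and 119 CPM in T-DXd-treated cells, against 17.9, 19.5 and 18.1 CPM in vehicle-treated cells. It changed by 2.70 ± 0.04 (adjusted p = 6.83e-17, edgeR). At a higher level stood TNS4, a focal adhesion protein (chromosome 17, 40475834 to 40501623), with 363, 408 and 369 CPM in T-DXd-treated cells, against 88.7, 91 and 88.6 CPM in vehicle-treated cells, a log2 fold change of 2.09 ± 0.04. The 3 genes encode proteins of different places in the cell. ADGRF4, an adhesion G protein-coupled receptor, rose by 2.72 ± 0.10, the secreted serine protease KLK5 by 2.70 ± 0.09, the hyaluronan-degrading enzyme HYAL1 by 2.42 ± 0.12, the adhesion molecule MCAM by 2.34 ± 0.09, the extracellular matrix protein ECM1 by 2.06 ± 0.06 and the collagen chain COL1A1 by 2.02 ± 0.12. OLFML2A, a secreted olfactomedin-domain protein, rose by 1.92 ± 0.13, LYPD2, a small surface protein of the Ly6 family, by 1.66 ± 0.11, and NES, an intermediate filament protein of progenitor cells, by 1.99 ± 0.07.

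Increases were also found in genes best known from blood and endothelial cells. CD22, a sialic acid-binding receptor that restrains B-cell signaling (chromosome 19, 35329187 to 35347361), measured 52.2, 49.8 and 51.2 CPM in T-DXd-treated cells, against 10.9, 9.46 and 11.7 CPM in vehicle-treated cells, changing by 2.25 ± 0.06 (adjusted p = 6.14e-14, edgeR). NOS3, the nitric oxide synthase of endothelium, rose by 2.16 ± 0.11, the lymphoid adaptor LAT2 by 2.15 ± 0.11, and APOL3, an interferon-responsive apolipoprotein L, by 2.12 ± 0.12. CD79A, a defining B-cell gene of the leukocyte list, stood at 0.405 CPM with T-DXd and 0.458 CPM with vehicle and was not called (-0.18 ± 0.35), while the integrin ITGAX (2.48 ± 0.13) and the kinase LCK (1.71 ± 0.14) of that list rose. Of the fibroblast and endothelial markers, 3 of 13 were tested, with a summed level of 9.44 to 11.9 CPM with T-DXd and 4.33 to 4.92 CPM with vehicle, and 2 were higher, COL1A1 and VWF (1.22 ± 0.33). The part of such cells in these increases was not tested. The 25 largest increases also held ATG9B, EHD2, CARNS1, FAXDC2 and PADI2. ATG9B, a lipid scramblase of autophagy, rose by 1.83 ± 0.07, EHD2, an ATPase at the neck of caveolae, by 1.74 ± 0.07, CARNS1, which makes carnosine, by 1.69 ± 0.14, the hydroxylase-domain protein FAXDC2 by 1.72 ± 0.13 and PADI2, which converts arginine to citrulline in proteins, by 1.65 ± 0.11. ANXA8 (1.81 ± 0.05) and ANXA8L1 (1.76 ± 0.05) are near-identical copies between which reads can be split, so their separate values are uncertain. RN7SK, the small RNA that holds the elongation factor P-TEFb inactive, measured 4.03, 14 and 13.9 CPM in T-DXd-treated cells, against 2.44, 1.62 and 2.88 CPM in vehicle-treated cells. Its replicates were far apart, with 1 T-DXd library close to vehicle, and its log2 fold change of 2.19 ± 0.61 (adjusted p = 0.00544, edgeR) has the widest error of the genes named here. RN7SK is not polyadenylated, and the T-DXd library low in it was also that with the fewest reads on ribosomal RNA genes. The part of this in its change was not tested.

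The decreases were led by a metal-binding gene. MT1X, a metallothionein that binds zinc and copper (chromosome 16, 56682470 to 56684196), measured 2.32, 2.91 and 2.99 CPM in T-DXd-treated cells, against 14.2, 12.2 and 12.5 CPM in vehicle-treated cells. All T-DXd libraries were far below the lowest vehicle library, with a change of -2.24 ± 0.12 (adjusted p = 1.45e-10, edgeR). MT2A, a second and more abundant metallothionein (chromosome 16, 56608584 to 56609497), measured 14, 13.3 and 13.6 CPM in T-DXd-treated cells, against 43.6, 44.4 and 41.7 CPM in vehicle-treated cells, a log2 fold change of -1.66 ± 0.05. MT1F, at 1.27 CPM with T-DXd and 2.65 CPM with vehicle (-1.06 ± 0.16), and MT1E, at 0.245 CPM with T-DXd and 0.691 CPM with vehicle (-1.48 ± 0.29), fell as well, so that all 4 metallothionein genes tested were lower with T-DXd. Zinc transport did not follow as a whole. Of the 20 genes tested for metallothioneins and zinc transport, 8 were higher and 8 lower, at a median of -0.01 against -0.01 over all genes, and the zinc importer SLC39A4 rose by 0.57 ± 0.04.

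The promoters of both metallothioneins are shown because their genes fell most in this group and carry many copies of the metal response element core, to which the zinc-sensing factor MTF1 binds. The sequences are from RefSeq on GRCh38.p14, from 250 bases before to 20 bases after the transcript start, written 5′ to 3′ on the strand of the gene, with matches to TGCGCNC or TGCACNC on either strand in capitals. MT1X lies at chr16:56682220-56682489, plus strand, and MT2A at chr16:56608334-56608603, plus strand. A window of 250 bases before to 50 after the start held 4 matches in MT1X and 8 in MT2A, of which 7 lie in the stretch printed. The same core was in 38% of the promoters of 12499 tested genes and in 29.3% of all promoters of the table, so that its presence alone is common.
MT1X: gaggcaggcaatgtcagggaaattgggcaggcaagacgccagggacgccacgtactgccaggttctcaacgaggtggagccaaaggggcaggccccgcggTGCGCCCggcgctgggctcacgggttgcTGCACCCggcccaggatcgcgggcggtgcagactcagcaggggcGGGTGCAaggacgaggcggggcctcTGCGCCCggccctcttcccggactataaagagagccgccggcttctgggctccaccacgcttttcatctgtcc
MT2A: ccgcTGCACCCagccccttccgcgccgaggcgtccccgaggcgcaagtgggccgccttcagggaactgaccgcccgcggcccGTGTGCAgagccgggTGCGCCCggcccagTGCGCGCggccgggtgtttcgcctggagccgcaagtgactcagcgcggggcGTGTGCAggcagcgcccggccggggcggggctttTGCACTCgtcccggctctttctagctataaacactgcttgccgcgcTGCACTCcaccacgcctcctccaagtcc

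A histone gene was also among the largest decreases. H1-10, a replication-independent linker histone (chromosome 3, 129314771 to 129316286), measured 52.8, 53.6 and 56.2 CPM in T-DXd-treated cells, against 139.6, 144 and 135 CPM in vehicle-treated cells, a log2 fold change of -1.36 ± 0.03. The groups lay far apart. H1-2, another histone of the DNA between nucleosomes, fell by less, with -0.66 ± 0.09 at 5.85 CPM with T-DXd and 9.22 CPM with vehicle, while the core histone gene H2BC4 rose (1.13 ± 0.12, 8.0 CPM with T-DXd and 3.65 CPM with vehicle). Over 52 histone genes tested, 9 were higher and 14 lower, at a median of -0.12. Without T-DXd replicate 2, the number higher was 5. Most replication-dependent histone mRNAs lack a poly(A) tail, and the libraries were made from poly(A) RNA.

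The remaining large decreases were spread over transport, signaling and enzymes. TAGLN, an actin-binding protein of contractile cells, measured 8.58, 9.45 and 11.3 CPM in T-DXd-treated cells, against 28.5, 23.8 and 32.4 CPM in vehicle-treated cells, a log2 fold change of -1.53 ± 0.10. TM4SF4, a membrane protein of the L6 family, changed by -1.80 ± 0.09, the estrogen sulfotransferase SULT1E1 by -1.73 ± 0.12, the lipase LIPC by -1.46 ± 0.07 and the brush border motor MYO1A by -1.37 ± 0.10. MYB, a transcription factor of progenitor cells, changed by -1.38 ± 0.09 and MAML3, a coactivator of Notch, by -1.38 ± 0.09. FDXACB1 (-1.51 ± 0.11), C17orf49 (-1.42 ± 0.14), the kinase NEK5 (-1.43 ± 0.07) and the olfactomedin-family protein GLDN (-1.41 ± 0.12) were also among the 15 largest.

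**Figure D2:**
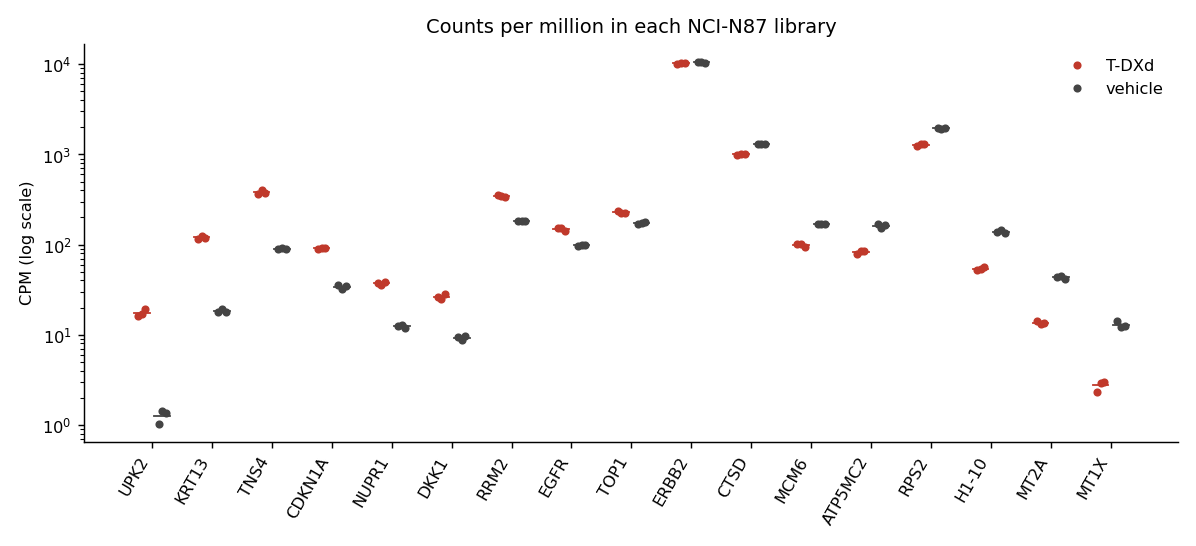
CPM (y axis, log scale) of 17 named genes in the 3 T-DXd libraries (left of each pair) and the 3 vehicle libraries (right) of NCI-N87, with a line at each mean. The points of a group lie close together and the groups do not overlap for any of these genes, with UPK2 higher and MT1X lower by the widest margins and ERBB2 nearly level. The genes were picked, and those from the largest changes were chosen for groups that do not overlap. Over all genes tested, libraries did not overlap in 31.5% with T-DXd higher and in 31.9% with T-DXd lower.

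The target of the antibody changed little, and genes that handle the drug changed in both directions. ERBB2 (chromosome 17, 39688094 to 39728658) measured 10122, 10289 and 10299 CPM in T-DXd-treated cells, against 10583, 10604 and 10430.0 CPM in vehicle-treated cells. All T-DXd libraries were lower, yet by a log2 fold change of only -0.04 ± 0.01 (adjusted p = 0.00103, edgeR). ERBB3, its heterodimer partner, changed by -0.08 ± 0.02, whereas EGFR rose by 0.60 ± 0.03, with 154, 151 and 141 CPM with T-DXd, against 95.6, 99.3 and 99 CPM with vehicle. TOP1 (chromosome 20, 41028822 to 41124487), the target of the payload, was higher with T-DXd, at 233, 226 and 225 CPM in T-DXd-treated cells, against 169.6, 173 and 179 CPM in vehicle-treated cells, with a change of 0.39 ± 0.03 (adjusted p = 3.05e-09, edgeR). TOP2A, the topoisomerase of dividing cells, rose by 0.33 ± 0.02, while TOP2B, its counterpart in resting cells, changed by -0.21 ± 0.03 and the mitochondrial TOP1MT by -0.28 ± 0.04. The topoisomerase genes therefore moved in both directions.

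Efflux and lysosomal genes were mixed too. ABCG2, an efflux pump for camptothecin-type drugs, measured 28.7, 33.3 and 31.2 CPM in T-DXd-treated cells, against 18.3, 18.3 and 17.7 CPM in vehicle-treated cells, with a change of 0.78 ± 0.06 (adjusted p = 4.74e-09, edgeR). ABCC1, another pump, rose by 0.34 ± 0.03, and ABCC2 changed by -0.08 ± 0.02. The lysosomal membrane proteins LAMP2 (0.45 ± 0.02) and LAMP1 (0.17 ± 0.03) and the lysosomal catabolite transporter SLC46A3 (0.30 ± 0.11) were higher. The call of SLC46A3 was lost without T-DXd replicate 2 (0.22, adjusted p = 0.124, edgeR) and without vehicle replicate 2 (0.29, adjusted p = 0.0628, edgeR). Among lysosomal proteases, CTSD changed by -0.37 ± 0.02, while CTSB (0.05 ± 0.02) and CTSL (0.10 ± 0.06) were not called. CTSB was called by DESeq2 (adjusted p = 0.0123) and CTSL without vehicle replicate 1 (adjusted p = 0.0461, edgeR). CAV1, which forms caveolae, was low in both groups and rose by 1.63 ± 0.17 (2.81 CPM with T-DXd and 0.901 CPM with vehicle). Repair of trapped topoisomerase I involves TDP1 and XRCC1. XRCC1 rose (0.20 ± 0.04), and TDP1 (-0.12 ± 0.07), TDP2, which repairs trapped topoisomerase II (-0.09 ± 0.04), and SLFN11, which blocks stressed replication forks (0.12 ± 0.12), were not called. TDP2 was called lower without T-DXd replicate 1 or without vehicle replicate 1 (adjusted p = 0.0364 and 0.0357, edgeR). In all, 10 of the 22 genes for the target and drug handling were higher and 7 lower.

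The most uniform change over a gene group was a fall of the genes for protein synthesis. All 80 tested genes of cytosolic ribosomal proteins were lower with T-DXd, against 29.5% of all genes, at a median log2 fold change of -0.42 with a range of -0.63 to -0.20. Their summed level was 38056, 38509 and 39006 CPM with T-DXd, against 52514, 50568 and 51939 CPM with vehicle. The groups were thus separated by far more than their spread. RPS2, a protein of the small subunit (chromosome 16, 1962058 to 1964826), measured 1252, 1298 and 1307 CPM in T-DXd-treated cells, against 1957, 1915 and 1972 CPM in vehicle-treated cells, with a change of -0.60 ± 0.02 (adjusted p = 1.43e-13, edgeR). RPS29 (-0.63 ± 0.02) and RPL10 (-0.56 ± 0.03) were also among the members with the largest changes.

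Genes around the ribosome moved the same way. Ribosome biogenesis genes were lower for 54 and higher for 6 of 73 (median -0.18), led by RRS1 (-0.64 ± 0.05), UTP20 (-0.63 ± 0.04), FBL, the methyltransferase of ribosomal RNA (-0.57 ± 0.03), and IMP4 (-0.55 ± 0.03). Translation factors were lower for 28 and higher for 1 of 38 (median -0.19). EEF1A1, which delivers aminoacyl-tRNA to the ribosome, measured 4595, 4503 and 4543 CPM in T-DXd-treated cells, against 6335, 6087 and 6243 CPM in vehicle-treated cells, a log2 fold change of -0.45 ± 0.01, and EIF4B (-0.48 ± 0.02), RACK1 (-0.44 ± 0.02) and EIF5A (-0.44 ± 0.03) also fell. Host genes of small nucleolar RNAs, whose introns encode guides for ribosomal RNA modification, were lower for 20 and higher for 1 of 24 (median -0.39). SNHG3 measured 31.9, 33.9 and 32.2 CPM in T-DXd-treated cells, against 63.4, 66.3 and 65.6 CPM in vehicle-treated cells, a log2 fold change of -1.0 ± 0.03, and SNHG19 (-0.92 ± 0.10), SNHG8 (-0.58 ± 0.05) and SNHG4 (-0.56 ± 0.09) followed. Aminoacyl-tRNA synthetases were less uniform, with 12 of 20 lower and 4 higher. VARS1 (-0.47 ± 0.03) and FARSB (-0.40 ± 0.03) fell, and the interferon-inducible WARS1 rose (0.40 ± 0.03).

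Nuclear genes for mitochondrial translation and respiration fell alongside. Mitochondrial ribosomal proteins were lower for 66 and higher for 3 of 78 (median -0.26), with MRPL54 (-0.82 ± 0.10), MRPL48 (-0.71 ± 0.06), MRPL24 (-0.69 ± 0.03) and MRPL12 (-0.64 ± 0.03) changed most. For the nuclear-encoded respiratory chain, 66 of 76 were lower and 1 higher (median -0.26). ATP5MC2, a subunit of the c-ring of ATP synthase (chromosome 12, 53665170 to 53681423), measured 78.4, 84.1 and 84 CPM in T-DXd-treated cells, against 168, 154 and 163 CPM in vehicle-treated cells, with a change of -0.98 ± 0.04 (adjusted p = 1.56e-12, edgeR). ATP5MC1 (-0.63 ± 0.04), ATP5ME (-0.61 ± 0.05) and UQCR10 (-0.54 ± 0.04) fell by less. Genes encoded in the mitochondrial genome itself changed little: 8 of 13 were lower and 0 higher at a median of -0.07, with COX3 at -0.19 ± 0.02, ND5 at -0.19 ± 0.03, ATP6 at -0.14 ± 0.03 and ND2 at -0.10 ± 0.02. Without T-DXd replicate 1, 2 of them were called higher, and the calls of COX1 (-0.05 ± 0.02) and ND4 (-0.07 ± 0.02) were lost without that library or without vehicle replicate 1 (adjusted p = 0.0644 to 0.092, edgeR).

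Splicing factors of the SR and hnRNP families joined the decreases, with 26 of 33 lower and 3 higher (median -0.20). HNRNPD (-0.50 ± 0.03), HNRNPDL (-0.46 ± 0.03), HNRNPL (-0.45 ± 0.03) and SRSF1 (-0.41 ± 0.03) changed most. Proteasome subunits did not share this shift, as 9 of 31 were higher and 6 lower at a median of 0.01. PSMD2 (0.28 ± 0.02) and PSMC6 (0.18 ± 0.03) rose and PSMA3 (-0.27 ± 0.03) and PSMB6 (-0.23 ± 0.03) fell.

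**Figure D3:**
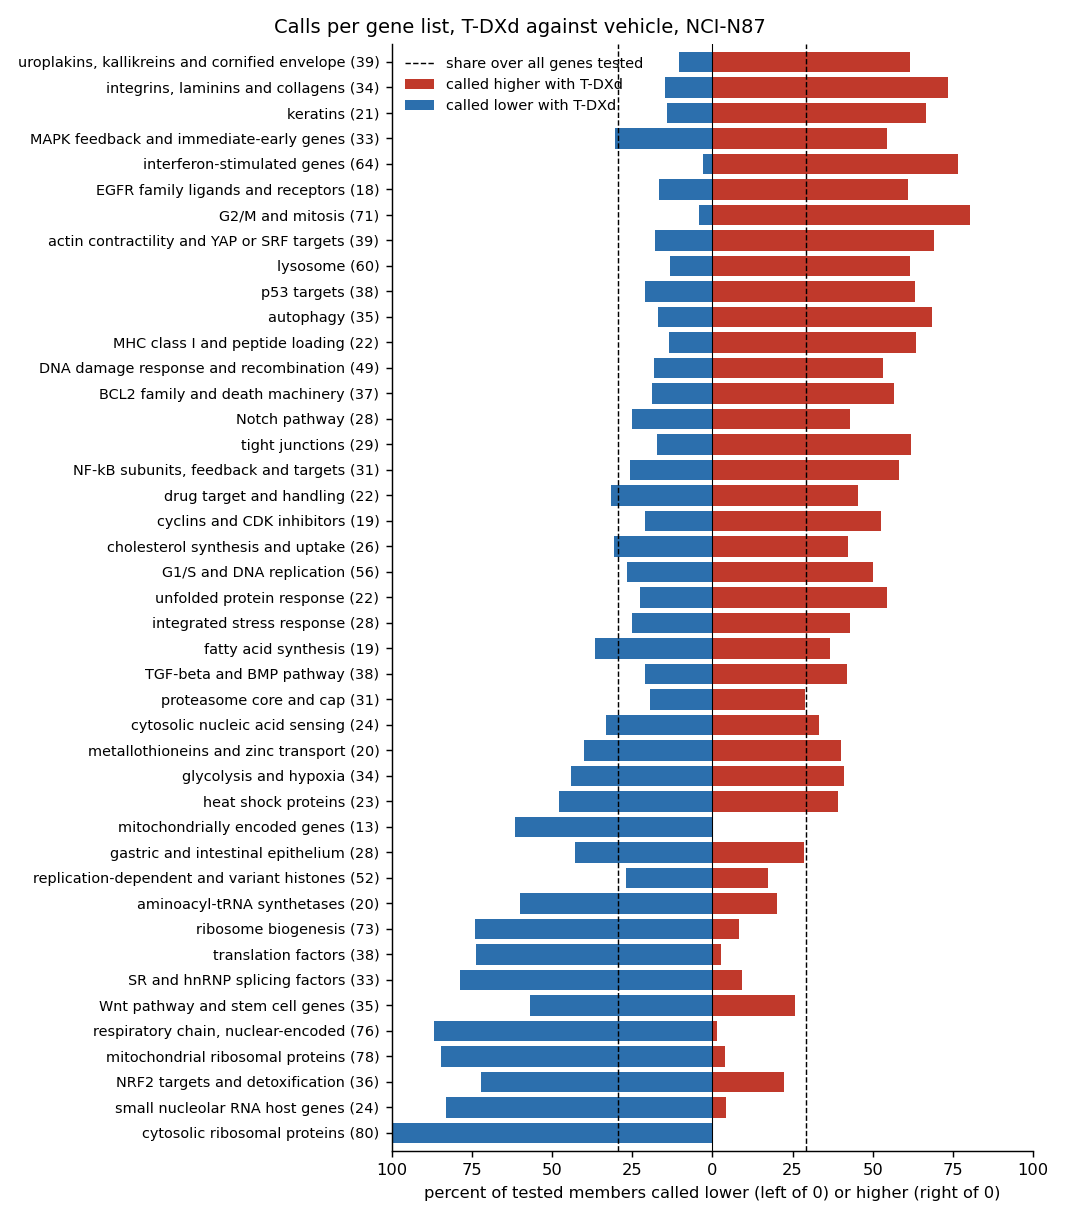
Percent of the tested members of each gene list called lower (left of 0) and higher (right of 0) with T-DXd in NCI-N87 cells, lists ordered by median log2 fold change with the number tested in parentheses, and dashed lines at the shares over all genes tested. The list at the bottom is that of cytosolic ribosomal proteins, with 80 of 80 genes lower, and the bars of the mitosis list (57 of 71) and the interferon-stimulated genes (49 of 64) reach furthest right.

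Cell cycle genes differed between phases. Among G2/M and mitosis genes, 57 of 71 were higher and 3 lower, at a median of 0.32, against 29.1% and 29.5% over all genes. CEP55, which acts at abscission (chromosome 10, 93496612 to 93529092), measured 179, 172 and 177 CPM in T-DXd-treated cells, against 98.2, 99.5 and 98.3 CPM in vehicle-treated cells, with a change of 0.83 ± 0.02 (adjusted p = 1.26e-13, edgeR). HJURP, the chaperone of centromeric histone (chromosome 2, 233836702 to 233854535), measured 103, 100.5 and 102 CPM in T-DXd-treated cells, against 58.3, 59.3 and 58.1 CPM in vehicle-treated cells, a log2 fold change of 0.80 ± 0.03. The CDK-activating phosphatase CDC25B (0.75 ± 0.03) and the kinetochore protein SPC24 (0.72 ± 0.05) also rose, so genes of kinetochore, mitotic entry and cytokinesis were all among those higher. Both promoters below are shown for the cell cycle homology region, an element through which G2/M genes are repressed outside that phase, with matches to TTTGAA on either strand or to TTCGAA, which reads the same on both strands, in capitals. In the full windows, 68.1% of the 47 G2/M genes called higher with a promoter sequence held a match, and 69.5% of all 59 tested G2/M genes with one did, beside 11.5% of the promoters of all tested genes and 16.6% of all promoters. The share was thus no higher among the members called higher than among those tested, and 11.4% of all genes called higher held a match. The window printed for CEP55 is chr10:93496362-93496631, plus strand, and that for HJURP chr2:233854516-233854785, minus strand, again from RefSeq on GRCh38.p14, 5′ to 3′ on the gene's strand.
CEP55: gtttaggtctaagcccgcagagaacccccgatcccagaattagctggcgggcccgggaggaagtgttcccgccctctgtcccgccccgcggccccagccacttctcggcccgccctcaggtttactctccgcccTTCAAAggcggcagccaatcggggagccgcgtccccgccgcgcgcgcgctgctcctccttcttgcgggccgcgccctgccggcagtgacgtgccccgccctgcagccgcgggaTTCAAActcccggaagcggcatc
HJURP: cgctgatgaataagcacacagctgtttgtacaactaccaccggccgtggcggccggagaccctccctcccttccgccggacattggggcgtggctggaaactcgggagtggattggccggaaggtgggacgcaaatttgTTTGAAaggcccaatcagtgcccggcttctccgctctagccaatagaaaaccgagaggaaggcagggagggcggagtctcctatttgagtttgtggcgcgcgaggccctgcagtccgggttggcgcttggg

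G1/S and replication genes split. Here 28 of 56 were higher and 15 lower, at a median of 0.07. RRM2, the ribonucleotide reductase subunit that limits deoxynucleotide supply (chromosome 2, 10122568 to 10211010), measured 353, 348 and 341 CPM in T-DXd-treated cells, against 184, 183 and 181 CPM in vehicle-treated cells, a log2 fold change of 0.93 ± 0.02, and CDC6, which loads the replicative helicase, rose by 0.64 ± 0.03. In contrast MCM6, a subunit of that helicase (chromosome 2, 135839626 to 135876443), measured 102, 100.3 and 94.5 CPM in T-DXd-treated cells, against 169, 171 and 168 CPM in vehicle-treated cells, a log2 fold change of -0.77 ± 0.03, and MCM5 changed by -0.71 ± 0.02. CDC6 thus went the opposite way to MCM6 and MCM5, and all of them were named for the size of their change. Of DNA damage response and recombination genes, 26 of 49 were higher and 9 lower (median 0.14). FANCB (0.88 ± 0.09) and FANCD2 (0.65 ± 0.03) of the Fanconi anemia pathway and the recombination gene XRCC2 (0.77 ± 0.06) rose, while FANCF, of the same Fanconi core complex as FANCB, fell (-0.73 ± 0.05). The checkpoint kinase CHEK2 rose by 0.38 ± 0.05 and ATM by 0.14 ± 0.04, and ATR changed by -0.09 ± 0.02. H2AX had 0.09 ± 0.03, a call that was lost without T-DXd replicate 2 or without vehicle replicate 3 (adjusted p = 0.0754 and 0.0993, edgeR).

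p53 target genes were higher for 24 and lower for 8 of 38 (median 0.23). CDKN1A, which encodes the CDK inhibitor p21 (chromosome 6, 36676463 to 36687332), measured 88.8, 92 and 90.9 CPM in T-DXd-treated cells, against 35.5, 32.5 and 34.4 CPM in vehicle-treated cells, with a change of 1.41 ± 0.05 (adjusted p = 6.86e-13, edgeR). It was followed by the ceramidase ACER2 (0.93 ± 0.07), the kinase PLK3 (0.73 ± 0.08) and the TRAIL receptor TNFRSF10B (0.63 ± 0.03). Among cyclins and CDK inhibitors, CDKN2B (1.13 ± 0.06), CCNG2 (0.54 ± 0.05) and CDKN2D (0.51 ± 0.14) rose as well, and 10 of 19 were higher and 4 lower. In the BCL2 family and death machinery, 21 of 37 were higher and 7 lower (median 0.14). CASP1, the inflammasome caspase (0.94 ± 0.14), the pore-forming GSDMB (0.80 ± 0.03) and BMF, a BH3-only inducer of apoptosis (0.52 ± 0.09), rose, and the survival gene BCL2 fell (-0.52 ± 0.13).

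Keratin genes and genes of stratified and urothelial epithelium were mostly higher. Keratins were higher for 14 and lower for 3 of 21 (median 0.43, range -1.14 to 2.70), with KRT16 (0.97 ± 0.05), KRT80 (0.89 ± 0.03) and KRT6A (0.87 ± 0.06) next to KRT13. The keratin list is not limited to stratified epithelium, as KRT8 of simple epithelia and its partner KRT18 were among those higher. Uroplakin, kallikrein and cornified envelope genes were higher for 24 and lower for 4 of 39 (median 0.46), among them the crosslinking enzyme TGM2 (1.45 ± 0.05) and the envelope protein SCEL (1.17 ± 0.06). Gastric and intestinal genes were lower more often than higher, with 8 of 28 higher and 12 lower (median -0.12). PIGR, the receptor that carries IgA across mucosa, fell (-1.36 ± 0.14), as did the transcription factor HNF4G (-0.84 ± 0.04). MUC5AC, the mucin of gastric surface cells, rose, with 6.20, 9.25 and 6.99 CPM in T-DXd-treated cells, against 2.02, 1.83 and 2.01 CPM in vehicle-treated cells (1.93 ± 0.15), as did CEACAM6, an adhesion protein, with 687, 695 and 702 CPM in T-DXd-treated cells, against 362, 376 and 366 CPM in vehicle-treated cells (0.92 ± 0.02). Gastric genes therefore did not fall together.

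Adhesion and matrix genes were mostly higher. For integrins, laminins and collagens, 25 of 34 were higher and 5 lower (median 0.44). FN1, fibronectin (chromosome 2, 215360865 to 215436068), measured 64.9, 65.3 and 63.5 CPM in T-DXd-treated cells, against 24.8, 26.4 and 24.5 CPM in vehicle-treated cells, with a change of 1.36 ± 0.04 (adjusted p = 7.98e-14, edgeR). The collagen COL16A1 (1.45 ± 0.06), the collagen-binding integrin ITGA2 (1.19 ± 0.03) and the basement membrane proteoglycan HSPG2 (0.93 ± 0.04) rose with it. Tight junction and surface genes were higher for 18 and lower for 5 of 29, with CLDN9 (1.40 ± 0.11), CLDN1 (0.59 ± 0.08) and E-cadherin CDH1 (0.61 ± 0.02) all higher. CDH1 measured 722, 722 and 721 CPM with T-DXd, against 474, 475 and 474 CPM with vehicle. Actin and YAP or SRF target genes were higher for 27 and lower for 7 of 39 (median 0.28). The matricellular THBS1 (0.98 ± 0.05) rose, against the fall of TAGLN in the same list.

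Several growth factor ligands and feedback inhibitors rose. Of 18 genes of EGFR family ligands, receptors and adaptors, 11 were higher and 3 lower (median 0.37). The ligand TGFA measured 97.2, 95.6 and 102 CPM in T-DXd-treated cells, against 38.8, 40.4 and 44.1 CPM in vehicle-treated cells, a log2 fold change of 1.26 ± 0.04, and the ligands HBEGF (1.21 ± 0.07) and BTC (0.98 ± 0.20) and the adaptor SHC1 (1.05 ± 0.03) rose too. In MAPK feedback and immediate-early genes, 18 of 33 were higher and 10 lower. The phosphatases DUSP5 (1.40 ± 0.06) and DUSP4 (1.07 ± 0.10), the transcription factor ETV5 (1.16 ± 0.05) and the inhibitor SPRY4 (1.10 ± 0.06) led the increases.

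Wnt genes moved mainly down, with 20 of 35 lower and 9 higher (median -0.22). DKK1, a secreted inhibitor of Wnt receptors (chromosome 10, 52314281 to 52317657), rose, with 26.1, 25.1 and 28.4 CPM in T-DXd-treated cells, against 9.41, 8.69 and 9.59 CPM in vehicle-treated cells, with a change of 1.52 ± 0.07 (adjusted p = 7.12e-12, edgeR). The receptor FZD1 (-1.18 ± 0.18), the Wnt-induced transcription factor SP5 (-1.04 ± 0.10) and NOTUM, a Wnt-induced feedback inhibitor (-0.89 ± 0.04), fell. Notch genes were higher for 12 and lower for 7 of 28, with the ligand JAG1 (0.86 ± 0.03) and the fringe MFNG (0.54 ± 0.10) higher and DTX4 (-0.42 ± 0.02) lower. In the TGF-beta and BMP pathway 16 of 38 were higher and 8 lower. SMAD3 (0.88 ± 0.03), the feedback gene PMEPA1 (0.92 ± 0.03) and the latency protein LTBP1 (0.93 ± 0.12) rose, while SMAD4, low in both groups at 1.28 CPM with T-DXd and 2.51 CPM with vehicle, fell (-0.97 ± 0.18).

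Lysosomal and autophagy genes rose on balance. Lysosome genes were higher for 37 and lower for 8 of 60 (median 0.24). NEU1, a sialidase (chromosome 6, 31857659 to 31862821), measured 83.5, 81.8 and 85.4 CPM in T-DXd-treated cells, against 39.6, 37.1 and 39.4 CPM in vehicle-treated cells, with a change of 1.11 ± 0.03 (adjusted p = 1.43e-13, edgeR). The sphingomyelinase SMPD1 (1.06 ± 0.09), the membrane protein CD68 (1.05 ± 0.05) and the protease CTSF (1.0 ± 0.08) rose by a similar factor. CTSD, whose fall is given above, was among the 8 members lower. Autophagy genes were higher for 24 and lower for 6 of 35 (median 0.19), including the cargo receptor OPTN (0.85 ± 0.04), WIPI1 (0.85 ± 0.11) and MAP1LC3B, which encodes the autophagosome protein LC3B (0.74 ± 0.03).

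NRF2 targets and detoxification genes fell in 26 of 36 cases and rose in 8 (median -0.30). The aldo-keto reductases AKR1C2 (-0.79 ± 0.08) and AKR1C3 (-0.75 ± 0.03), whose reads can be shared between close paralogs, and the glutathione transferase GSTA4 (-0.79 ± 0.09) fell, while the drug-oxidizing CYP3A5 rose, with 42.6, 41.6 and 44.6 CPM in T-DXd-treated cells, against 19.5, 20.9 and 18.3 CPM in vehicle-treated cells (1.13 ± 0.05). Lipid genes were divided. In cholesterol synthesis and uptake, 11 of 26 were higher and 8 lower, with the synthesis enzymes IDI1 (0.61 ± 0.02) higher and PMVK (-0.58 ± 0.05) lower. In fatty acid synthesis, 7 of 19 were higher and 7 lower, and the regulator SREBF1 (-0.56 ± 0.02), the desaturase SCD (-0.46 ± 0.03) and the elongase ELOVL6 (-0.80 ± 0.05) fell. Glycolysis and hypoxia genes were balanced at 14 higher and 15 lower of 34, although the lactate exporter SLC16A3 (0.93 ± 0.02) and the glucose transporter SLC2A1 (0.70 ± 0.02) rose, as did ADM (0.61 ± 0.13), and P4HA1 fell (-0.67 ± 0.05).

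Stress genes were divided. NUPR1, a stress-induced transcriptional regulator (chromosome 16, 28532708 to 28538974), measured 37.6, 35.8 and 38.6 CPM in T-DXd-treated cells, against 12.4, 12.9 and 11.8 CPM in vehicle-treated cells, with a change of 1.59 ± 0.05 (adjusted p = 2.35e-13, edgeR). In the integrated stress response list 12 of 28 genes were higher and 7 lower, with DDIT3 (0.62 ± 0.06) and CHAC1 (0.61 ± 0.12) higher and DDIT4 (-0.59 ± 0.03) lower. Genes of the unfolded protein response were higher for 12 and lower for 5 of 22, led by DNAJB9 (0.70 ± 0.10). Heat shock protein genes were higher for 9 and lower for 11 of 23, with the small chaperone HSPB8 (0.93 ± 0.11) and DNAJB4 (0.57 ± 0.05) higher and HSPA4L (-0.40 ± 0.04) and the mitochondrial co-chaperonin HSPE1 (-0.35 ± 0.03) lower.

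Interferon-stimulated genes were higher for 49 and lower for 2 of 64, at a median of 0.37. GBP4, a guanylate-binding protein (chromosome 1, 89181144 to 89198942), measured 12, 12.1 and 13.7 CPM in T-DXd-treated cells, against 5.81, 6.33 and 6.20 CPM in vehicle-treated cells, with a change of 1.05 ± 0.09 (adjusted p = 2.34e-08, edgeR). IFI6, an antiviral protein (chromosome 1, 27666064 to 27672192), measured 54.2, 53.7 and 57.2 CPM in T-DXd-treated cells, against 26.9, 26.8 and 26.9 CPM in vehicle-treated cells, a log2 fold change of 1.03 ± 0.04. XAF1, an apoptosis-promoting interferon target (1.28 ± 0.13), APOL2 (1.08 ± 0.03), UBA7 (1.14 ± 0.08) and ISG15 (0.96 ± 0.04) also rose, so most increases were near or below 2-fold. The promoters of GBP4 (chr1:89198923-89199192, minus strand) and IFI6 (chr1:27672173-27672442, minus strand) are shown for the interferon element, the letters GAAA followed by any 2 bases and GAAA again, to which the interferon-activated factor ISGF3 binds. Matches on either strand are in capitals, in RefSeq sequence of GRCh38.p14, 5′ to 3′ on the gene's strand. In the full windows, 63.9% of the 36 interferon-stimulated genes called higher with a promoter sequence held a match, and 66.7% of all 48 tested ones did, beside 2.98% of the promoters of all tested genes and 3.65% of all promoters. The share was 3.15% among all genes called higher, and within the list it was no higher among members called higher than among those tested.
GBP4: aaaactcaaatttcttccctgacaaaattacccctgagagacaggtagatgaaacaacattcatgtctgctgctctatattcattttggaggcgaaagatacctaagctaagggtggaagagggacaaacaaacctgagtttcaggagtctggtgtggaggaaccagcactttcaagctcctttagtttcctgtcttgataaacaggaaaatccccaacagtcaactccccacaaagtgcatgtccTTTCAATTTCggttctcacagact
IFI6: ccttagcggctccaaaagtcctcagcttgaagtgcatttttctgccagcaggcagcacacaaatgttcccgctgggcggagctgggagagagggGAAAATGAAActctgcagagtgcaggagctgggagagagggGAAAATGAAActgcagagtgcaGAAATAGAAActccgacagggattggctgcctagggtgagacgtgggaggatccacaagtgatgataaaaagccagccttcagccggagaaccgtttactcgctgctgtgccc

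The genes of cytosolic nucleic acid sensing, which lie upstream of that response, did not move as a group, with 8 of 24 higher and 8 lower at a median of 0.00. CGAS, the DNA sensor, measured 32.5, 30.3 and 29.9 CPM with T-DXd, against 27.4, 30.6 and 30 CPM with vehicle, overlapping levels that differed by 0.08 ± 0.05 (adjusted p = 0.192, edgeR). Its adaptor STING1 rose by 0.22 ± 0.04, while TBK1 (-0.02 ± 0.04) and IRF3 (0.02 ± 0.03) were not called. IRF7 (0.41 ± 0.05), SAMHD1 (0.41 ± 0.05), the RNA sensor gene DDX58 (0.33 ± 0.09) and IRF1 (0.36 ± 0.04) rose, and POLR3B (-0.49 ± 0.07) and ENPP1, which degrades the second messenger of CGAS (-0.49 ± 0.14), fell. GBP4 and IFI6 were picked by the size of their change, so they are no fair measure for these genes. The median of the interferon-stimulated genes was 0.37, against 0.00 for the sensing genes. IRF7 and SAMHD1 were likewise among the largest increases of the sensing list (maximum 0.41), so they do not stand for that list. IRF1 is itself a member of the interferon list.

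For MHC class I and peptide loading, 14 of 22 genes were higher and 3 lower (median 0.19), with MR1 (0.95 ± 0.07), HLA-B (0.74 ± 0.03), HLA-E (0.51 ± 0.02) and HLA-F (0.50 ± 0.04) changed most. Reads of HLA genes can be shared between these similar genes. CD274, which encodes PD-L1, was low in both groups, with 1.03, 0.833 and 1.05 CPM in T-DXd-treated cells, against 0.401, 0.596 and 0.587 CPM in vehicle-treated cells, and rose by 0.88 ± 0.23 (adjusted p = 0.00349, edgeR). CD86 (0.30 ± 0.14) and HLA-DRA (-0.09 ± 0.13) were not called. CD86 was called without T-DXd replicate 3 or without vehicle replicate 1 (adjusted p = 0.0374 and 0.0286, edgeR). In the NF-kB list 18 of 31 were higher and 8 lower. The adhesion molecule ICAM1 rose (1.02 ± 0.04), while the neutrophil chemokines CXCL5 (-1.22 ± 0.08), CXCL3 (-1.12 ± 0.09) and CXCL2 (-1.0 ± 0.17) fell, as did CCL5 (-0.37 ± 0.11), a T-cell attractant.

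Genes were also ranked by the CPM gained or lost. The 5069 genes called higher gained 77818 CPM in sum. The largest gain of a single gene was that of KRT8 (1051.7 CPM, 0.33 ± 0.01), followed by RNR2, the large ribosomal RNA of mitochondria, with 994 CPM. RNR2 measured 9604, 10040.0 and 10214 CPM with T-DXd, against 8919.7, 8896 and 9059.8 CPM with vehicle, a small change on the log2 scale (0.15 ± 0.02) of a very abundant RNA. The lysosomal precursor PSAP (0.61 ± 0.02), KRT18, the partner of KRT8 (0.40 ± 0.02), the amyloid precursor-like APLP2 (0.92 ± 0.02), the cytolinker PLEC (0.60 ± 0.03), B2M of MHC class I (0.50 ± 0.02), KRT7 (0.76 ± 0.03), HLA-B and the junction protein JUP (0.29 ± 0.02) came next. Among losses, EEF1A1, COX3 and RPL19 (-0.41 ± 0.01) led. PPP1R1B, a phosphatase inhibitor whose gene lies near ERBB2 (chromosome 17, 39626707 to 39636624), measured 1780.5, 1945 and 1749 CPM in T-DXd-treated cells, against 2596, 2561 and 2587 CPM in vehicle-treated cells, a log2 fold change of -0.50 ± 0.03. PTMA (-0.57 ± 0.02), an acidic nuclear protein, and RPL23 (-0.34 ± 0.02) were further members. Reference genes often used for qPCR were not all level, as 5 of 17 were higher and 7 lower. ACTB had 0.00 ± 0.02 and was not called, nor were IPO8 (-0.02 ± 0.03) and HPRT1 (-0.03 ± 0.04), whereas GAPDH (-0.18 ± 0.01), RPLP0 (-0.44 ± 0.02) and GUSB (0.46 ± 0.04) were called.

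Change also varied with the genomic span of a gene, that is the distance between its ends, over 11070 protein-coding genes whose mean log2 CPM was 2 or more, split by span into 10 classes of equal size. In the shortest class (median 3.64 kb) the median log2 fold change was -0.15, with 21.9% called higher and 53.7% lower. In the longest class (median 223.6 kb) it was 0.01, with 38.3% higher and 35.0% lower, and the highest median, 0.05, was in class 8 (median 71.8 kb, 42.0% higher and 29.3% lower). Each of the 3 T-DXd libraries showed the low value in the shortest class (medians of -0.18, -0.15 and -0.14 against the vehicle mean). Ribosomal protein genes are short, and without those of cytosol and mitochondria the shortest class had -0.12 and the longest 0.01. Ordered instead by the exon length of the longest transcript, the shortest class had -0.14 (22.3% higher and 51.7% lower). The longest then had 0.058 (43.8% higher and 28.3% lower), so the trend was not particular to genomic span. Genes are not independent replicates, so no test is given. Among transcript classes, 25 of 138 small nucleolar RNAs were lower (18.1%) and 2 higher (1.45%). Of 791 pseudogenes, 164 were lower (20.7%) and 62 higher (7.84%). Both classes were thus called less often in each direction than all genes, with 29.5% lower and 29.1% higher. Of 13551 protein-coding genes, 4468 were lower and 4477 higher (33.0% each). Pseudogene counts can hold reads of their parent genes. Zinc finger genes on chromosome 19 were taken as all protein-coding genes there with a ZNF symbol, with no check for a KRAB domain. Of these, 23 of 173 were higher and 36 lower, beside 29.1% and 29.5% of all genes. ZNF714 (0.68 ± 0.06) and ZNF431 (0.68 ± 0.05) rose, and ZNF497 (-0.78 ± 0.13) and ZNF235 (-0.69 ± 0.13) fell.

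**Figure D4:**
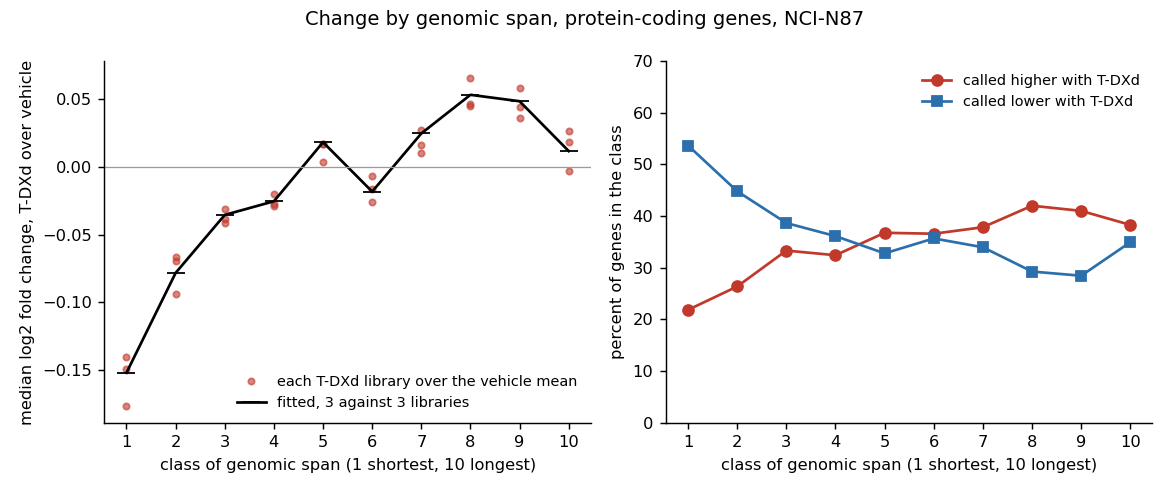
Left, median log2 fold change of T-DXd over vehicle (y axis) by class of genomic span (x axis, 1 shortest to 10 longest) for 11070 protein-coding genes, with a line for the fitted values and points for each T-DXd library over the vehicle mean, and right, the percent of genes called in each direction. The median is lowest in class 1, at -0.15, and calls lower are fewer than calls higher from class 5 on.

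To see whether T-DXd differed from its antibody alone, it was tested directly against trastuzumab in the same fit, where 28.3% of genes were called higher and 29.4% lower. This comparison shares the T-DXd libraries with that against vehicle, so the values are only set side by side. Trastuzumab replicate 2 lay apart from the rest of its group. Without it 4622 genes were called higher and 4735 lower, against 4920 and 5119 with it. The drop was not particular to that library. Without trastuzumab replicate 1, 4644 were higher and 4790 lower, and without replicate 3, 4512 and 4609. KRT13 averaged 120.4 ± 4.41 CPM with T-DXd and 17.9 ± 0.767 CPM with trastuzumab (SD, n = 3 each), a direct difference of 2.75 ± 0.04 (adjusted p = 6.02e-17, edgeR). CDKN1A averaged 90.6 ± 1.59 CPM with T-DXd and 33.8 ± 3.10 CPM with trastuzumab (1.42 ± 0.05), so both were higher with T-DXd than with the antibody. MT1X averaged 2.74 ± 0.368 CPM with T-DXd and 11.2 ± 1.74 CPM with trastuzumab (-2.04 ± 0.13). Of the cytosolic ribosomal proteins, 77 of 80 were lower with T-DXd than with trastuzumab and 0 higher (median -0.28), and of the nuclear-encoded respiratory chain 51 of 76 were lower and 6 higher (median -0.15). RPS2 averaged 1286 ± 29.6 CPM with T-DXd and 1728 ± 8.74 CPM with trastuzumab (-0.43 ± 0.02), and ATP5MC2 82.2 ± 3.27 CPM with T-DXd and 156 ± 6.85 CPM with trastuzumab (-0.92 ± 0.04). Of the 13 mitochondrially encoded genes 5 were lower and 1 higher, and ND4 (-0.02 ± 0.02) and ND2 (-0.03 ± 0.02) were not called. ERBB2 averaged 10237 ± 99.3 CPM with T-DXd and 10584 ± 150.3 CPM with trastuzumab, a direct difference of -0.05 ± 0.01 (adjusted p = 0.000324, edgeR). Not all genes called against vehicle were called against trastuzumab. CD274 (0.34 ± 0.22, adjusted p = 0.208, edgeR), BTC (0.43 ± 0.19, adjusted p = 0.063), CLDN1 (0.08 ± 0.08), BMF (0.06 ± 0.08), ENPP1 (-0.19 ± 0.14) and GAPDH (0.01 ± 0.01) were not, which does not show that their levels were the same with both agents.

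Whether the largest changes were also seen in SNU-484 cells was tested as the difference of the T-DXd effect between lines over 14704 genes measured in both, where 22.5% of genes were called more positive in NCI-N87 and 19.4% more negative. The 6 largest increases and 5 of the 6 largest decreases tested in both lines were compared, with all values below from 1 fit of 12 libraries. MCAM measured 27.8, 25.8 and 25.9 CPM with T-DXd, against 5.53, 5.46 and 4.51 CPM with vehicle in NCI-N87, and 39.9, 43.2 and 42.5 CPM with T-DXd, against 41.1, 41.1 and 42.9 CPM with vehicle in SNU-484. The difference of the effects was 2.36 ± 0.10 (adjusted p = 2.7e-09, edgeR), from 2.36 ± 0.07 in NCI-N87 and 0.00 ± 0.06 in SNU-484, where MCAM was high in both groups. NOS3 had 2.19 ± 0.11 in NCI-N87 and the opposite sign in SNU-484 (-0.48 ± 0.11, adjusted p = 0.0042, edgeR). TAGLN was lower with T-DXd in both lines, with -1.51 ± 0.14 in NCI-N87 and -0.76 ± 0.13 in SNU-484. MT1X (-2.22 ± 0.16 in NCI-N87 and 0.56 ± 0.21 in SNU-484) and MT2A (-1.64 ± 0.13 and 0.35 ± 0.14) fell in NCI-N87 and were not called in SNU-484. HYAL1, LAT2, ECM1 and NEK5 were not called in SNU-484 either, and the difference between lines was called for 10 of the 11 genes, all but RN7SK (1.78 ± 0.74, adjusted p = 0.0698, edgeR). HYAL1, LAT2, ECM1, NEK5 and MT1X were weakly expressed in SNU-484, with 0.314 to 1.995 CPM across its libraries. The SE of their change was 0.141 to 0.239 there and 0.087 to 0.159 in NCI-N87.

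**Figure D5:**
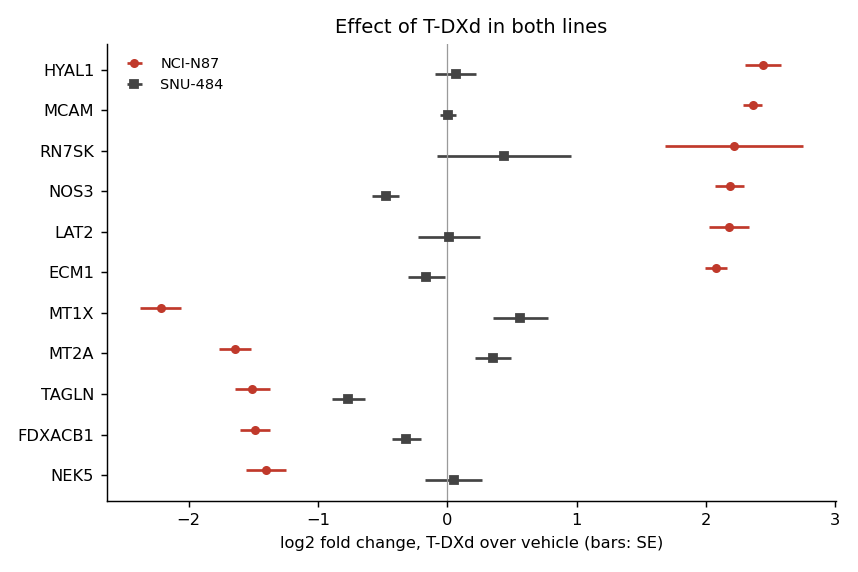
Log2 fold change of T-DXd over vehicle (x axis, bars are SE) for 11 genes (y axis) in NCI-N87 (circles) and SNU-484 (squares), from 1 fit of 12 libraries. The NCI-N87 values lie beyond 1.4 on either side of 0, while in SNU-484 only NOS3, TAGLN and FDXACB1 were called, all lower.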

How the data were processed

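RNA was extracted with TRIzol and sequenced from TruSeq Stranded mRNA libraries. According to the submitters' processing notes, reads were trimmed with Trimmomatic 0.38, aligned to GRCh38 with HISAT2 2.1.0 and assigned to genes with StringTie 2.1.3b. The annotation release is not given in the sources used here. The authors deposited raw read counts per gene beside FPKM, TPM and transformed values, as well as their own fold changes and p-values. Only the deposited counts were used, and 27 and 18 other per-library columns of the 2 tables were left unused. Where close paralogs share sequence, how reads were divided is not known.

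Genes were kept by filterByExpr (minimum count 10), scaled by the TMM method and tested with edgeR 4.0.16 (R 4.3.3) in 1 fit of all 9 NCI-N87 libraries with 1 term per group. CPM were computed with TMM-scaled library sizes. Lines were compared by the interaction of line and treatment over 12 libraries. The test was checked on simulated counts. Between 51963223 and 61462654 counts per T-DXd or vehicle library bound the precision. No 2 replicates differed as little as 1 library counted again would. Differences between replicates, as chi-square over degrees of freedom, were 3.36 to 12.97 for vehicle and T-DXd pairs. Trastuzumab replicate 2 lay apart, with 41.92 and 40.97 against replicates 1 and 3, which differed by 4.85. It also had 2.19% of counts on ribosomal RNA genes, against 0.318% and 0.471%. With only T-DXd and vehicle libraries in the fit, 5087 genes were called higher and 5066 lower, against 5069 and 5125. Alternatives were DESeq2 1.42.0, other scalings and filters, a replicate block and leaving out each library. Genes named are the 25 largest increases and 15 largest decreases (average log2 CPM at least 2, groups not overlapping), the 10 largest CPM gains and losses, up to 4 members per list, all members of the drug-handling and reference lists, and genes the study discusses, with a few list members added after their values were seen. Members and lists were chosen with earlier results of these data known. Promoters are from RefSeq, matched for 71.9% of tested genes. Some genes picked by these rules are not reported here.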

Additional observations from a re-analysis of the deposited data

Results flagged for a closer look

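The effect of T-DXd differed between NCI-N87 and SNU-484 cells, by the edgeR test of the interaction of line and treatment, for 10 of the 11 genes compared. The log2 fold change in NCI-N87 minus that in SNU-484 was 2.66 for NOS3, 2.38 for HYAL1, 2.36 for MCAM, 2.24 for ECM1 and 2.17 for LAT2, and it was -2.78 for MT1X, -1.99 for MT2A, -1.45 for NEK5, -1.17 for FDXACB1 and -0.74 for TAGLN. The adjusted p-values of these differences ran between 2.7e-09 (MCAM) and 0.00639 (TAGLN). The genes were those with the largest changes in NCI-N87, so a smaller effect in the other line is partly fixed by their choice. In SNU-484, HYAL1, LAT2, ECM1, NEK5 and MT1X were also weakly expressed, at 0.314 to 1.995 CPM. The 2 lines differ in HER2 level and in much else, and line and HER2 level cannot be told apart.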

How the results depend on the processing

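Across 282 named genes, no alternative turned the direction of a called change, and 12 genes moved across the threshold under at least 1 alternative, with FADS2 the furthest from 0 of them (-0.46). Of genes called at least 2-fold lower there were 339, and 221 when at least 10 counts were asked of every library. With genes split by span into 10 classes, the median log2 fold change of the shortest was -0.15, and it was -0.13 without the filter on average log2 CPM and -0.12 without ribosomal protein genes. That of the longest was 0.01. When genes were ordered by exon length, the shortest class had -0.14 and the longest 0.058. Replicate numbers did not pair T-DXd with vehicle libraries (correlations of deviations 0.015, -0.012 and -0.012). Between same-numbered T-DXd and trastuzumab libraries these correlations were 0.102, 0.071 and 0.047. With a replicate block 5065 genes were called higher with T-DXd than with vehicle and 5080 lower, against 5069 and 5125. The block ended the call of LYZ (adjusted p = 0.0515, edgeR), of no other named gene against vehicle. Leaving out 1 library gave 4752 to 4850 genes higher and 4724 to 4851 lower. DESeq2 called 4999 higher and 4901 lower. The difference between lines for RN7SK was called without T-DXd replicate 1 of NCI-N87 (adjusted p = 0.0197, edgeR), without T-DXd replicate 2 of SNU-484 (adjusted p = 0.0141, edgeR) and with the replicate block (adjusted p = 0.0179, edgeR). Counts called in a list moved by more than 1.5 times only where at most 2 members were concerned, apart from histones called higher (5 without T-DXd replicate 2, against 9). The median SE of a log2 fold change was 0.356 for genes averaging below 0 on the log2 CPM scale and 0.0251 for those above 8, so small changes of weakly expressed genes were not detectable at this depth.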

Other observations

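The share of genes called depended on their level. Among 3403 genes with an average log2 CPM below 0, 13.9% were called higher and 9.11% lower. Calls were more frequent in both directions above that level, but the balance did not follow it. At 4 to 6, 32.8% were called higher and 38.0% lower (5328 genes), at 6 to 8, 42.6% higher and 36.4% lower (2996 genes), and above 8, 36.2% higher and 47.9% lower (583 genes). The precision of a fold change differs between these classes, so the share of calls cannot be read as the share of genes that changed.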
